A study of Mus musculus with 8 samples.

Results

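The unfolded protein response and the integrated stress response were described here through 33 genes of the mouse liver, listed by name as members of both pathways. They are 33 of the 22565 protein-coding genes in the table, and they fall into 4 branches: 4 sensors, 7 genes of the ATF4 and CHOP branch, 10 targets of XBP1 and 12 chaperones and folding enzymes of the endoplasmic reticulum (ER). Xbp1, which encodes a transcription factor and not a sensor, was counted with the sensors. Livers came from male C57BL/6J mice aged 10 weeks that received daily intraperitoneal injections for 14 days. One group of 4 libraries (vehicle 1 to 4) received saline, and the other group of 4 (dexamethasone 1 to 4) received dexamethasone, a synthetic agonist of the glucocorticoid receptor, at 1.0 mg/kg. A single dose and a single time were studied. The labels do not say that each library is 1 mouse, so the p-values measure the spread between these libraries.

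The ER folds the proteins that a cell secretes, and the hepatocyte, which makes most plasma proteins, carries a heavy load of them. When unfolded protein accumulates, IRE1 (gene Ern1) splices Xbp1 mRNA, ATF6 is cleaved to release a transcription factor, and PERK (gene Eif2ak3) phosphorylates the translation factor eIF2alpha. Phosphorylation of eIF2alpha slows translation in general and favours that of ATF4, which induces genes of amino acid supply and the transcription factor CHOP (gene Ddit3). Other eIF2alpha kinases reach ATF4 from amino acid shortage, heme shortage or double-stranded RNA, and this shared arm is the integrated stress response. The values here are mRNA levels per gene. Splicing of Xbp1, cleavage of ATF6, phosphorylation of eIF2alpha and translation of Atf4 were not measured.

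Levels are given as scaled FPKM, which are fragments per kilobase of transcript and per library size, divided by 1 factor per library so that the typical gene is level across libraries. Differences are log2 fold changes of (scaled FPKM + 1), dexamethasone minus vehicle, with their standard error (SE). They understate the change of genes near or below 1. A gene was tested when it reached 0.5 FPKM as deposited in at least 4 libraries, and it was called when its adjusted p, over all 10221 genes tested, was under 0.05. The libraries held 2077506 to 3360090 fragments on protein-coding genes with vehicle and 1361294 to 2219964 with dexamethasone, by the step of the deposited count columns. Of these, 14.5% to 25.3% and 28.4% to 51.1% were assigned to the single gene Lars2, a mitochondrial leucyl-tRNA synthetase, so the dexamethasone libraries were shallower for every other gene. Fkbp5, a standard target of the glucocorticoid receptor, had 5.90 ± 0.588 scaled FPKM with vehicle and 68.5 ± 5.67 with dexamethasone (SD, n = 4 each), a rise that held in every alternative tried.

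Of the 33 genes 31 were tested, and Atf3 and Derl3 stayed below the filter. With dexamethasone 4 rose (Herpud1, Creld2, Atf5 and Ddit3) and 0 fell, while over all genes tested 3.35% were called higher and 3.06% lower. At an unadjusted p under 0.05 there were 6 higher and 4 lower among the 31, and 1017 higher and 1047 lower among all genes. The groups of 4 libraries did not overlap in 6 of the 33 genes: Herpud1, Atf5, Ddit3 and Chac1 were higher in every dexamethasone library, and Ern1 and Derl2 were lower. Among all genes tested, 7.32% were higher and 7.1% lower without overlap. The median log2 fold change of the 31 genes was 0.05, beside -0.003 for all genes tested. By branch the median was -0.12 in 4 tested sensors, -0.02 in 9 tested XBP1 targets and 0.01 in 12 ER chaperones. In 6 tested genes of the ATF4 and CHOP branch it was 0.63, the midpoint of Chac1 and Asns. Those genes passed the filter mainly through the dexamethasone libraries (Chac1 in 4 and Asns in 3, and each in 1 vehicle library), so this median supports nothing about the branch.

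The calls depended on the scaling between libraries and on single libraries. With FPKM as deposited, the median of all genes was -0.28, and 802 of the calls over all genes were lower (85.1%) and 140 higher, against 313 lower (47.8%) and 342 higher after scaling. Ddit3 was then the 1 gene of the 33 called higher, and Derl2, Ern1, Pdia3 and Xbp1 were called lower. Herpud1 was called without any 1 library. Leaving out vehicle 1, vehicle 3, dexamethasone 2 or dexamethasone 3 ended the calls of Creld2, Atf5 and Ddit3. The calls of Atf5 and Ddit3 were lost without vehicle 4, that of Atf5 without dexamethasone 1, that of Creld2 without vehicle 2, and those of Atf5 and Creld2 without dexamethasone 4.

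**Figure D1:**
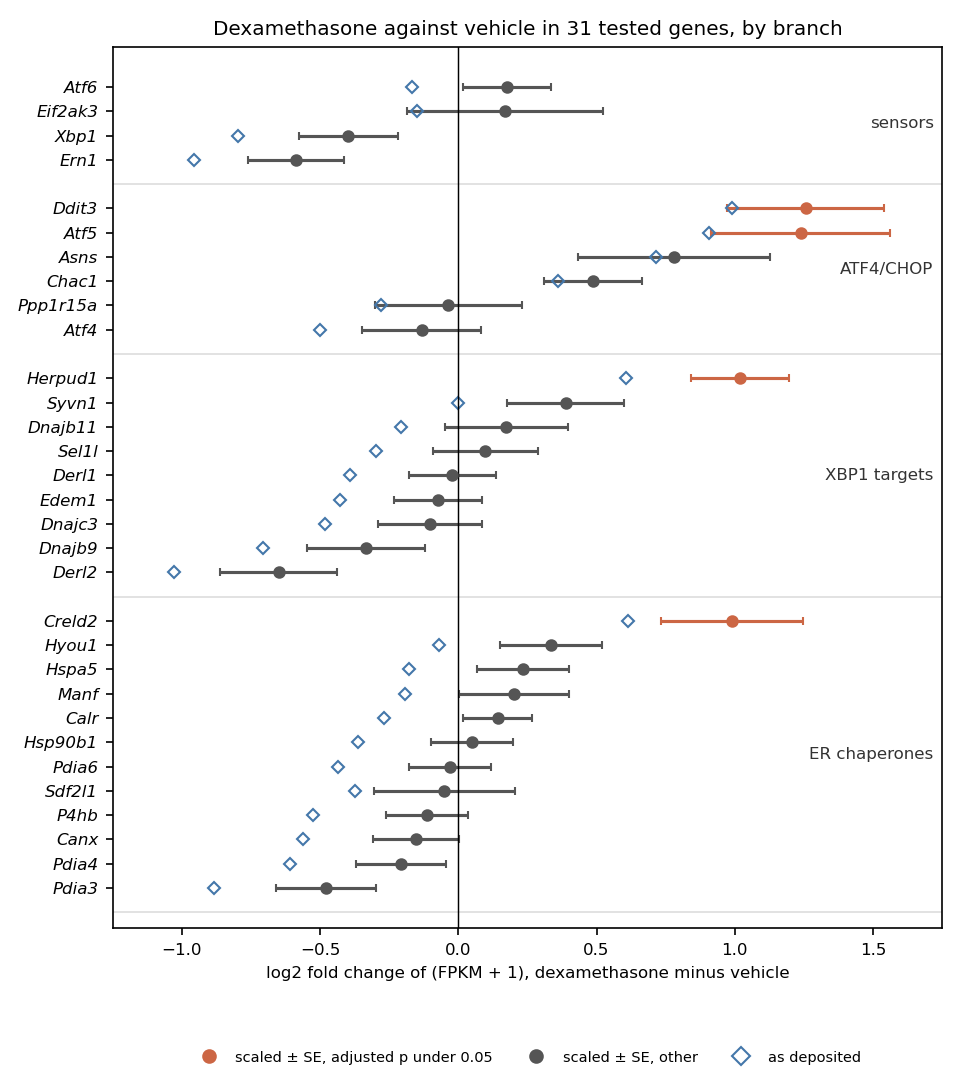
Log2 fold change of (FPKM + 1), dexamethasone minus vehicle, for the 31 tested genes by branch. Filled points with bars are scaled values ± SE (orange: adjusted p under 0.05; grey: other), and open diamonds are the values as deposited. The 4 orange points are Ddit3, Atf5, Herpud1 and Creld2, and the diamonds lie to the left of the scaled values in each gene shown.

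Promoter sequences were read first, since ER stress genes are classically grouped by the elements in them. The ER stress response element (ERSE), bound by ATF6 and XBP1 together with the factor NF-Y, was searched as CCAAT, any 9 bases, then CCACG. ERSE-II was searched as ATTGG, any base, then CCACG, the XBP1 element UPRE as TGACGTGG, and the amino acid response element (AARE), bound by ATF4, as TGATGNAA. All were searched on both strands of RefSeq promoters of 300 bases (GRCm38.p6, 250 before the start and 50 after), and no match means only that these letters are not in that window. Of the 33 genes 29 had a promoter in the table, 31 promoters in all, and a gene was counted when any of its promoters held the motif. ERSE was found in 9 of them (31%: Calr, Canx, Creld2, Derl3, Dnajc3, Hsp90b1, Hspa5, Pdia6 and Syvn1), against 0.137% of 27025 genes with a promoter (0.119% of 32851 promoters). ERSE-II was found in Herpud1 and Dnajb11 (6.9%), against 0.0444% of all genes (0.0365% of promoters). AARE was found in Asns, Atf3, Chac1 and Herpud1 (13.8%), against 4.51% of all genes (3.97% of promoters). UPRE was found in 0 of the 29, against 0.714% of all genes (0.676% of promoters).

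Herpud1 was the only 1 of the 29 genes whose promoter held both an ERSE-II and an AARE. It had the firmest call, while Dnajb11, the other gene with an ERSE-II, was not called (0.17 ± 0.22, adjusted p = 0.73). A link between these elements and the rise was not tested. The Herpud1 promoter (chr8:94386179-94386478, plus strand) is printed with the promoters of Creld2 (chr15:88819396-88819695, plus strand), which rose, and Calr (chr8:84846882-84847181, minus strand), the ER chaperone of highest level with vehicle, which did not pass the test. The sequences run 5′ to 3′ along the gene, and capitals mark the matches. In Herpud1 the first capitals are the AARE on the opposite strand and the second are the ERSE-II. In Creld2 and Calr the capitals are an ERSE on the opposite strand.
Herpud1: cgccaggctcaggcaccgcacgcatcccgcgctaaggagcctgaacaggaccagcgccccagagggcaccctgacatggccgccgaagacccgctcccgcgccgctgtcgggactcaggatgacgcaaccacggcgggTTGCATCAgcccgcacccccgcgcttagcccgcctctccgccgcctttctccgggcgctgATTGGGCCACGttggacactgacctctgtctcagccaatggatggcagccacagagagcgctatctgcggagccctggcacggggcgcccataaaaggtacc
Creld2: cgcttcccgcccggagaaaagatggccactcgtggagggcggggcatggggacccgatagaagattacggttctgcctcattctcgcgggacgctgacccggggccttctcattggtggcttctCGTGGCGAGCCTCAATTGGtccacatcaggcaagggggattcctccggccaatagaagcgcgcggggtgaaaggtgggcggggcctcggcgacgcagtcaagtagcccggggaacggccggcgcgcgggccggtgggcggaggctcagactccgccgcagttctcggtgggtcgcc
Calr: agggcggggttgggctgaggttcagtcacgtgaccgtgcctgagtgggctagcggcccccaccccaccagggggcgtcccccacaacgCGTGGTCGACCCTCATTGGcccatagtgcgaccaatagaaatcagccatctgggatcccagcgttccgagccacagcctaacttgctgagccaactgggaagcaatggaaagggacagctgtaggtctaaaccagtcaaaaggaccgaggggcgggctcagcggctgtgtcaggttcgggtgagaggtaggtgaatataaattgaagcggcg

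Read in the direction of the motif, ERSE sites of 6 ER chaperone and ERAD genes are set side by side, with CCAAT and CCACG in capitals and the 9 free bases in lower case. They show that genes with the same element stood on both sides of the test.
Creld2: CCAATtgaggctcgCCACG
Hspa5: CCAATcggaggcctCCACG
Calr: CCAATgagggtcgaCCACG
Canx: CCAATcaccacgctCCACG
Pdia6: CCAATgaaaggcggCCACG
Syvn1: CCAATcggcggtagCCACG
Of the 9 genes with an ERSE 8 were tested, 1 (Creld2) rose and 0 fell, and their log2 fold changes ran from -0.15 to 0.99 with a median of 0.10. Among the 19 tested genes with a promoter and without an ERSE, 3 rose and 0 fell, with a median of -0.05. The 3 tested genes with an AARE had log2 fold changes of 0.49 (Chac1), 0.78 (Asns) and 1.02 (Herpud1), of which Herpud1 passed the test. Chac1 and Asns passed the filter mainly through the dexamethasone libraries and Atf3 was not tested, so these values support nothing about the element. In the 24 tested genes with a promoter and without an AARE, 3 rose and 0 fell, with a median of -0.04.

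None of the 4 sensors was called on scaled FPKM. Ern1, which encodes the ER kinase and ribonuclease IRE1, had 12.8, 13.1, 9.72 and 8.52 scaled FPKM with vehicle and 7.4, 6.92, 6.23 and 7.09 with dexamethasone. Every dexamethasone library lay below every vehicle library. The log2 fold change was -0.59 ± 0.17 (SE) and the adjusted p was 0.074. Ern1 was called lower in 2 of 19 alternatives, as deposited (adjusted p = 0.027) and on the scaled fragment counts (0.0039), and the highest adjusted p was 0.188. Within each library, which no scaling can move, the ratio of Ern1 to Atf6 was 2.73, 2.33, 2.16 and 1.84 with vehicle and 1.33, 1.25, 0.962 and 1.44 with dexamethasone. This ratio did not overlap between groups, but it was chosen after the values were seen and is no separate support for lower Ern1.

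Atf6, the ER membrane precursor of a transcription factor, had 4.68, 5.64, 4.51 and 4.64 scaled FPKM with vehicle and 5.58, 5.54, 6.48 and 4.92 with dexamethasone. Its groups overlapped (0.18 ± 0.16, adjusted p = 0.60). Eif2ak3, the gene of the ER kinase PERK, had 7.90, 2.98, 1.17 and 2.67 with vehicle and 3.09, 4.08, 2.90 and 4.54 with dexamethasone. Vehicle 1 was the highest and vehicle 3 the lowest of all 8 libraries. The log2 fold change of 0.17 ± 0.35 was smaller than its SE. The fragments of Eif2ak3 were about 74, 56, 53 and 59 with vehicle and 42, 44, 46 and 22 with dexamethasone. Vehicle 1 and vehicle 3 thus differed less in fragments than in FPKM, and the cause was not tested. Xbp1, whose mRNA IRE1 splices, had 34.4, 26.4, 35.2 and 45.5 with vehicle and 27.5, 30.8, 22.8 and 24.1 with dexamethasone. These groups overlapped through vehicle 2, and the log2 fold change was -0.40 ± 0.18 (adjusted p = 0.24). Xbp1 was called lower as deposited (adjusted p = 0.0464) and in no other of 19 alternatives, whose highest adjusted p was 0.487.

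In the ATF4 and CHOP branch 2 of 6 tested genes rose and 0 fell, and Atf4 itself was not called. Atf4, the transcription factor translated when eIF2alpha is phosphorylated, had 7.82, 11.0, 7.67 and 8.83 scaled FPKM with vehicle and 8.50, 5.28, 11.3 and 7.55 with dexamethasone. The lowest and the highest library were both dexamethasone, and the log2 fold change was -0.13 ± 0.21 (adjusted p = 0.80). Ddit3, the gene of the transcription factor CHOP, had 0.67, 1.34, 0.93 and 0.31 with vehicle and 1.54, 3.88, 3.21 and 5.15 with dexamethasone. Each dexamethasone library was above each vehicle library. The means were 0.812 ± 0.435 and 3.45 ± 1.5 (SD, n = 4 each), the log2 fold change was 1.26 ± 0.28 and the adjusted p was 0.024.

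The Ddit3 values rest on few fragments: about 5, 10, 9 and 1 with vehicle and 9, 24, 9 and 10 with dexamethasone. It was called in 13 of 19 alternatives, and the highest adjusted p was 0.0706. It was the gene of the 33 that was called higher as deposited. The ratio of Ddit3 to Atf4 within a library was 0.0857, 0.122, 0.121 and 0.0351 with vehicle and 0.181, 0.735, 0.285 and 0.682 with dexamethasone, and each dexamethasone library lay above the vehicle range. This pair, too, was chosen after the values were seen, so the ratio is no separate support for the rise of Ddit3. Ddit3 lies on chromosome 10 at 127290774 to 127296288 (GRCm38, plus strand). Some of its exon bases lie opposite the gene Mars, and whether fragments were counted by strand is not stated.

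Atf5, a transcription factor related to ATF4 and translated under the same control, had 0.92, 5.59, 3.47 and 3.51 scaled FPKM with vehicle and 9.73, 7.01, 10.1 and 7.26 with dexamethasone. The groups did not overlap, and vehicle 1 was far below the rest. The means were 3.37 ± 1.91 and 8.52 ± 1.61, the log2 fold change was 1.24 ± 0.32 and the adjusted p was 0.046. The call was close to the threshold: it held in 6 of 19 alternatives, with adjusted p up to 0.116. Of the exon bases of Atf5 82 lie opposite Nup62 and Il4i1 (chromosome 7, 44812256 to 44816658, minus strand).

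Chac1, a glutathione-degrading enzyme downstream of ATF4 and CHOP, had 0.09, 0.19, 0.40 and 0.72 scaled FPKM with vehicle and 1.02, 0.74, 0.77 and 0.93 with dexamethasone. All dexamethasone libraries lay above all vehicle libraries, the nearest by 0.74 to 0.72. With 1 to 6 fragments against 3 to 9 per library, the log2 fold change was 0.49 ± 0.18 and the adjusted p 0.15. Asns, the asparagine synthetase and a textbook ATF4 target, had 0.22, 0, 0.62 and 0 with vehicle and 1.66, 2.65, 0.78 and 0 with dexamethasone. The first 3 dexamethasone libraries were above every vehicle library and dexamethasone 4 was at 0 (0.78 ± 0.35, adjusted p = 0.24). Without dexamethasone 4 it was called higher (adjusted p = 0.0368), in none of the other 17 alternatives that tested it, and the highest adjusted p was 0.425.

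Ppp1r15a (GADD34), which recruits the phosphatase that reverses eIF2alpha phosphorylation, had 1.39, 1.73, 0.56 and 1.69 with vehicle and 1.57, 0.39, 1.44 and 1.84 with dexamethasone. Its groups overlapped over nearly their whole range (-0.04 ± 0.27, adjusted p = 0.96). Atf3, a stress-induced repressor, was not tested: it had at most 0.42 scaled FPKM with vehicle and 0.47 with dexamethasone, and 0 to 4 fragments per library.

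**Figure D2:**
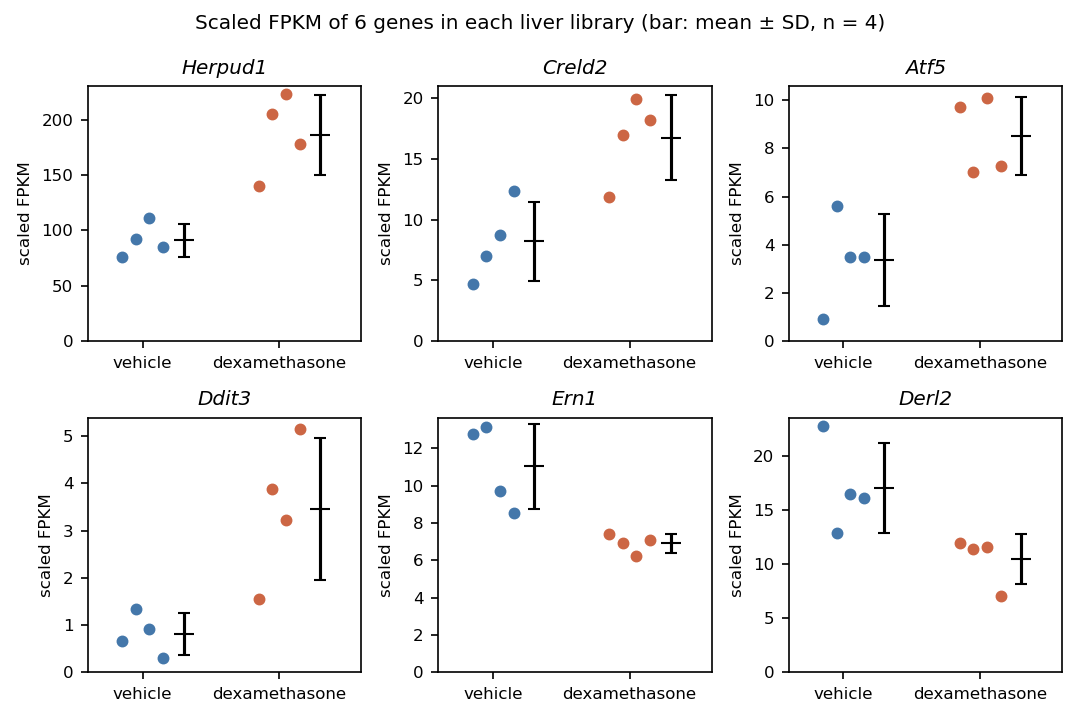
Scaled FPKM in each library for the 4 genes that rose and for Ern1 and Derl2, with the mean ± SD (n = 4) beside the points. Dexamethasone points stand above all vehicle points for Herpud1, Atf5 and Ddit3 and below them for Ern1 and Derl2, while 1 dexamethasone point of Creld2 (11.8) lies under the highest vehicle point (12.4).

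Among the XBP1 targets Herpud1 rose and no gene fell. Herpud1 is an ER membrane protein that assembles the machinery of ER-associated degradation (ERAD), by which misfolded proteins are returned to the cytosol and destroyed. It had 75.9, 92.4, 111 and 84.5 scaled FPKM with vehicle and 140, 205, 223 and 178 with dexamethasone. The lowest dexamethasone library was above the highest vehicle library. The means were 91.0 ± 15 and 186 ± 36.2 (SD, n = 4 each), the log2 fold change was 1.02 ± 0.18 and the adjusted p was 0.0058. In liver with vehicle 194 tested genes had a higher level than Herpud1, so the change was in an abundant mRNA, counted from 515 to 1352 fragments per library.

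Herpud1 was called in 18 of 19 alternatives. As deposited, its FPKM were 92.7, 116, 131 and 83.3 with vehicle and 131, 210, 196 and 119 with dexamethasone, the groups overlapped, and the log2 fold change of 0.61 was not called (adjusted p = 0.122, the highest of the alternatives). The ratio of Herpud1 to Hspa5 within a library, which no scaling can move, was 0.567, 0.670, 0.665 and 0.423 with vehicle and 0.758, 1.06, 1.03 and 1.15 with dexamethasone. In 3 of 4 dexamethasone libraries Herpud1 exceeded Hspa5, and in no vehicle library did it. This pair was also chosen after the values were seen, so the ratio is no separate support for the rise. Herpud1 lies on chromosome 8 at 94386438 to 94395377 (GRCm38, plus strand) and shares no exon base with another annotated gene.

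Derl2, a derlin of the ERAD channel, pointed the other way. It had 22.8, 12.9, 16.5 and 16.2 scaled FPKM with vehicle and 12.0, 11.4, 11.6 and 7.10 with dexamethasone. The groups did not overlap, with dexamethasone lower (-0.65 ± 0.21, adjusted p = 0.10). Derl2 was called lower as deposited (adjusted p = 0.0385) and on the scaled fragment counts (0.0129), and the highest adjusted p was 0.245. Derl1, its paralog, had 8.27 to 10.6 with vehicle and 7.57 to 9.99 with dexamethasone (-0.02 ± 0.16). The ratio of Derl2 to Derl1 was 2.14, 1.56, 1.92 and 1.92 with vehicle and 1.27, 1.37, 1.16 and 0.937 with dexamethasone. This pair was likewise chosen after the values were seen, so the ratio is no separate support for lower Derl2. Derl3, the third derlin, was not tested and had at most 0.55 scaled FPKM with vehicle and 0.97 with dexamethasone.

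The rest of the ERAD machinery and the ER DnaJ proteins did not pass the test. Syvn1 (HRD1), the ubiquitin ligase of the ERAD complex that Herpud1 joins, had 14.3, 14.2, 10.8 and 16.6 with vehicle and 12.3, 22.8, 22.9 and 17.9 with dexamethasone. The last 3 dexamethasone libraries were above all vehicle libraries and dexamethasone 1 was below 3 of them (0.39 ± 0.21, adjusted p = 0.34). Sel1l, the adaptor of Syvn1, had 25.96 to 28.1 with vehicle and 22.9 to 42.5 with dexamethasone, the highest being dexamethasone 2 (0.10 ± 0.19). Edem1, a lectin that hands misfolded glycoproteins to ERAD, had a log2 fold change of -0.07 ± 0.16. The BiP co-chaperones Dnajb9 (-0.33 ± 0.21), Dnajb11 (0.17 ± 0.22) and Dnajc3 (-0.10 ± 0.19) had adjusted p of 0.43, 0.73 and 0.83.

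**Figure D3:**
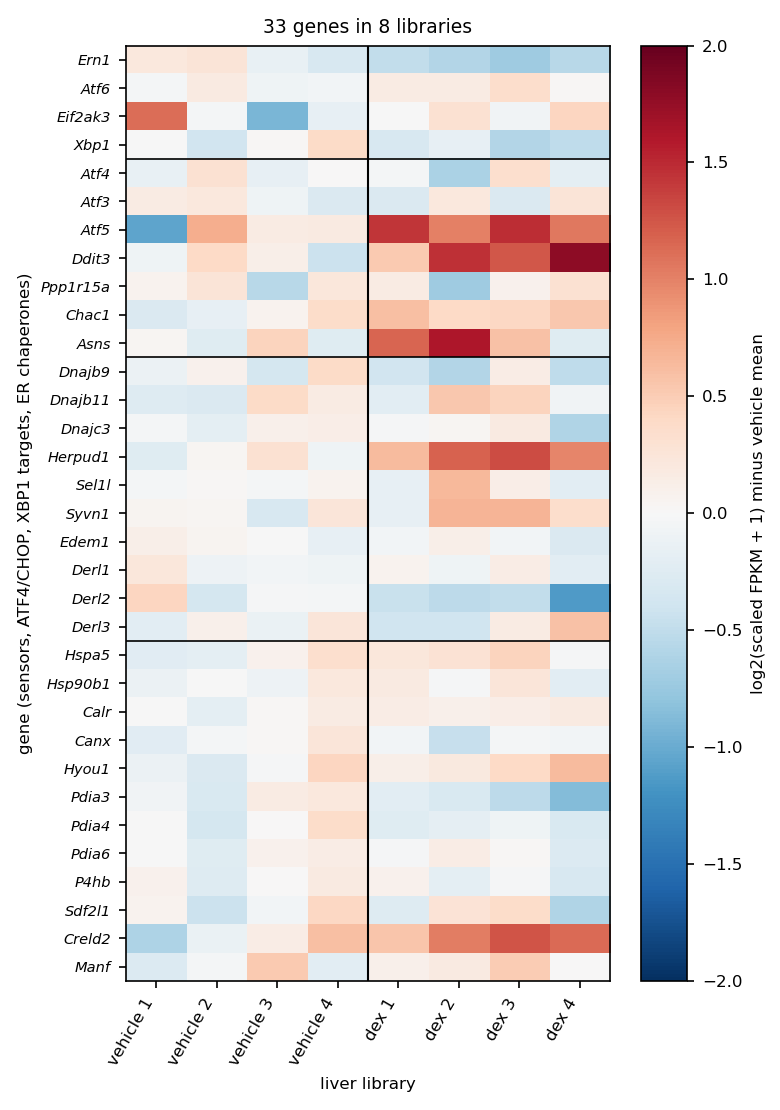
Deviation of log2(scaled FPKM + 1) from the vehicle mean for all 33 genes (rows, by branch) in the 8 libraries (columns). Red rows across the 4 dexamethasone columns are Atf5, Ddit3, Herpud1 and Creld2, Ern1 and Derl2 are blue there, and most chaperone rows stay near white in both groups.

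Of the 12 ER chaperones and folding enzymes Creld2 rose and 0 fell. Creld2, a secreted ER-stress-inducible protein with disulfide isomerase activity, had 4.72, 6.99, 8.76 and 12.4 scaled FPKM with vehicle and 11.8, 16.96, 19.96 and 18.3 with dexamethasone. The first 1 of the dexamethasone values lay below vehicle 4 and the other 3 lay above all vehicle libraries. The means were 8.21 ± 3.24 and 16.8 ± 3.5 (SD, n = 4 each), the log2 fold change was 0.99 ± 0.26 and the adjusted p was 0.043. It was called in 9 of 19 alternatives, with adjusted p from 0.0038 to 0.135. Manf, another small secreted ER stress protein, had 14.3 to 25.5 with vehicle and 17.6 to 25.3 with dexamethasone (0.20 ± 0.20, adjusted p = 0.64), and the ratio of Creld2 to Manf within a library overlapped between groups (0.330 to 0.833 against 0.630 to 1.04).

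Hspa5 (BiP), the central ER chaperone that also restrains the sensors, had 134, 138, 167 and 200 scaled FPKM with vehicle and 184, 193, 216 and 155 with dexamethasone. The groups overlapped (0.23 ± 0.17, adjusted p = 0.48), and as deposited the sign was negative (-0.18). Calr (calreticulin), a lectin chaperone, had 163, 143, 167 and 184 with vehicle and 182, 176, 180 and 185 with dexamethasone (0.14 ± 0.13, adjusted p = 0.59). The dexamethasone values lay near the top of the vehicle range and spread less, with an SD of 3.78 against 16.7. Hsp90b1 (GRP94) had 135 to 170 against 127 to 173, and P4hb, a protein disulfide isomerase, 124 to 168 against 118 to 157 (0.05 ± 0.15 and -0.11 ± 0.15). These 4 genes, at over 100 scaled FPKM with vehicle, are the most abundant of the 33. Of the exon bases of Hsp90b1 10.3% are shared with a pseudogene on the opposite strand.

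Pdia3, the disulfide isomerase that works with calreticulin and calnexin, was the lowest of the branch relative to vehicle. It had 70.8, 60.2, 83.1 and 86.5 with vehicle and 63.9, 59.9, 51.5 and 40.2 with dexamethasone. The groups overlapped through vehicle 2, and the log2 fold change of -0.48 ± 0.18 did not pass (adjusted p = 0.16). Pdia3 was called lower as deposited (0.0465) and in no other alternative, with adjusted p up to 0.325. Canx (calnexin) had 62.2 to 86.6 with vehicle and 53.0 to 70.7 with dexamethasone (-0.15 ± 0.15). Pdia4 (-0.21 ± 0.16) and Pdia6 (-0.03 ± 0.15), 2 more disulfide isomerases, and Sdf2l1 (-0.05 ± 0.25), an ER chaperone subunit, had adjusted p of 0.53, 0.94 and 0.94. Hyou1, a nucleotide exchange factor for BiP, had 34.8, 30.7, 37.4 and 51.3 with vehicle and 41.3, 43.4, 49.97 and 59.2 with dexamethasone (0.34 ± 0.18, adjusted p = 0.34). A p over the threshold does not show that these levels were alike.

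**Figure D4:**
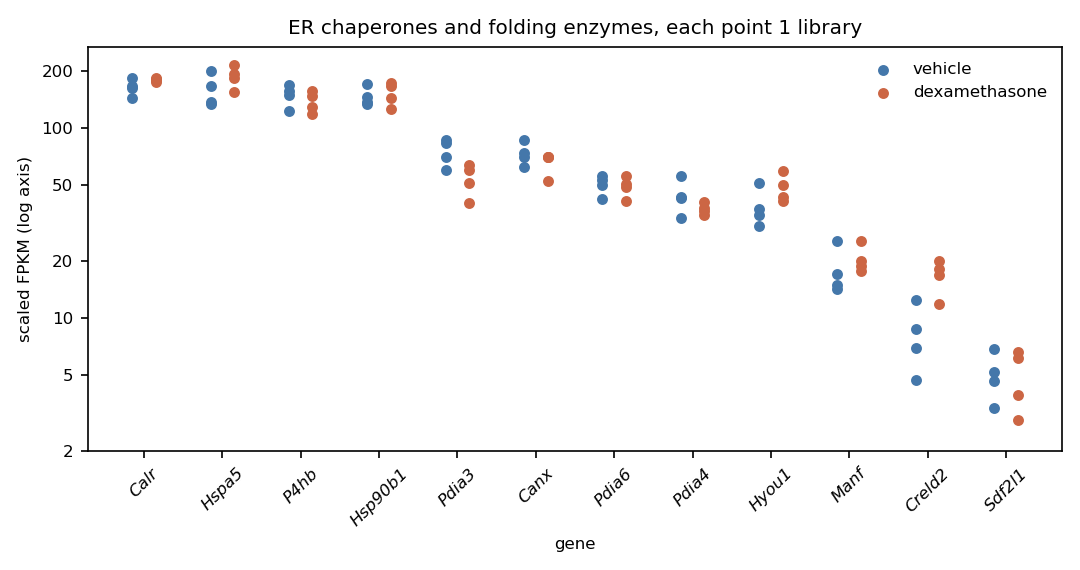
Scaled FPKM (log axis) of the 12 ER chaperones and folding enzymes in each library, ordered by the vehicle mean. Vehicle and dexamethasone points interleave in the genes above 100, dexamethasone points of Pdia3 reach down to 40.2, and those of Creld2 reach up to 19.96.

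Further genes of the pathway were read from lists that do not share genes with the 33. Of 26 other targets assigned to ATF4 13 were tested, and the rest stayed below the filter. Among the 13 tested genes 4 rose, 0 fell, and the median was 0.09, while 3.35% of all genes tested were called higher. Gdf15 and Sesn2 passed the filter mainly through the dexamethasone libraries, so this count and median support nothing about the list. As deposited, Gdf15 had 0.468, 0.680, 0.544 and 0.144 FPKM with vehicle and 4.77, 5.25, 8.96 and 7.82 with dexamethasone. Ddit4 (REDD1), an inhibitor of mTORC1 that the glucocorticoid receptor also induces, had 1.33, 1.11, 0.56 and 0.92 scaled FPKM with vehicle and 31.2, 16.98, 24.8 and 18.3 with dexamethasone (3.56 ± 0.22, adjusted p = 3.17e-06). Gdf15, a stress hormone, had 0.38, 0.54, 0.46 and 0.15 with vehicle and 5.08, 5.11, 10.2 and 11.7 with dexamethasone (2.63 ± 0.27, adjusted p = 0.00026). Neither gene overlapped between groups. Cebpb, a transcription factor, rose from a mean of 15.9 to 28.2 (0.83 ± 0.19, adjusted p = 0.027) and Eif4ebp1, a brake on translation, from 2.78 to 5.12 (0.71 ± 0.18, adjusted p = 0.041). Cebpb was called in 11 of 19 alternatives (adjusted p up to 0.281) and Eif4ebp1 in 9 (up to 0.300). Both calls were lost as deposited and without vehicle 1, 3 or 4 or dexamethasone 1 or 3, and that of Eif4ebp1 also without dexamethasone 2. Ddit4 and Gdf15 were called in all 19. With 1 library left out 2 to 4 of the 13 were called higher, and as deposited 2 were.

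Other ATF4 targets did not pass. Trib3, a pseudokinase induced by ATF4 and CHOP, had 0.44, 0.77, 1.39 and 0.30 scaled FPKM with vehicle and 0.19, 0.78, 0 and 0.56 with dexamethasone (-0.31 ± 0.24, adjusted p = 0.51). Sesn2, a leucine sensor, had 0.25 to 0.51 with vehicle and 0.30 to 1.83 with dexamethasone (0.56 ± 0.23, adjusted p = 0.19). It was called higher in 1 of the 18 alternatives that tested it, with 1 library left out (adjusted p = 0.0479). Its highest adjusted p was 0.346. Fgf21, a fasting and stress hormone of the liver, was not tested: it had 0.18, 0, 0 and 0 with vehicle and 0, 1.5, 1.51 and 2.03 with dexamethasone, from at most 7 fragments.

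Outside that list the calls were few. Of 24 tested folding enzymes Pdia5, a disulfide isomerase, fell, and 0 rose. It had 18.1, 17.5, 21.01 and 16.7 with vehicle and 9.21, 5.43, 7.90 and 8.35 with dexamethasone (-1.16 ± 0.18, adjusted p = 0.0026), and it was called in all 19 alternatives. Ero1l, the ER oxidase induced by CHOP, was at -0.16 ± 0.17 (adjusted p = 0.69). Of 20 cytosolic tRNA synthetases, several of which ATF4 induces, Vars rose (4.60 to 11.3, 1.06 ± 0.24, adjusted p = 0.025) and 0 fell. Vars was called in 11 of 19 alternatives, with adjusted p up to 0.0977. It was not called as deposited or without any 1 of the vehicle libraries, dexamethasone 1 or dexamethasone 4. Its fragments were about 87, 63, 110 and 48 with vehicle and 110, 96, 71 and 44 with dexamethasone. On the scaled fragment counts the highest log2 fold change of the 20 was 0.79. The log2 fold change was positive in 19 of the 20 after scaling, in 15 with quantile normalization and in 4 as deposited. Over all 10221 genes tested it was positive in 5074 after scaling. Some of the positive values were near 0, such as those of Yars (0.008) and Kars (0.012). Among 20 other ERAD genes, 26 of translocation and N-glycosylation, 11 other transducers, 16 of eIF2 and its kinases and 12 cytosolic heat shock genes 0 rose and 0 fell. The smallest adjusted p among these was that of Eif2ak2 (PKR, the kinase for double-stranded RNA), at -1.04 ± 0.29 and 0.057. Every dexamethasone library of Eif2ak2 lay below every vehicle library, and it was called lower in 3 of 19 alternatives (as deposited, with a filter of 1 FPKM, and without dexamethasone 1; adjusted p from 0.0111 to 0.146). Ube2g2, a ubiquitin-conjugating enzyme of ERAD (0.99 ± 0.30, adjusted p = 0.085), was called higher in 2 of 19, on the scaled fragment counts and without vehicle 2 (adjusted p from 0.000707 to 0.229).

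**Figure D5:**
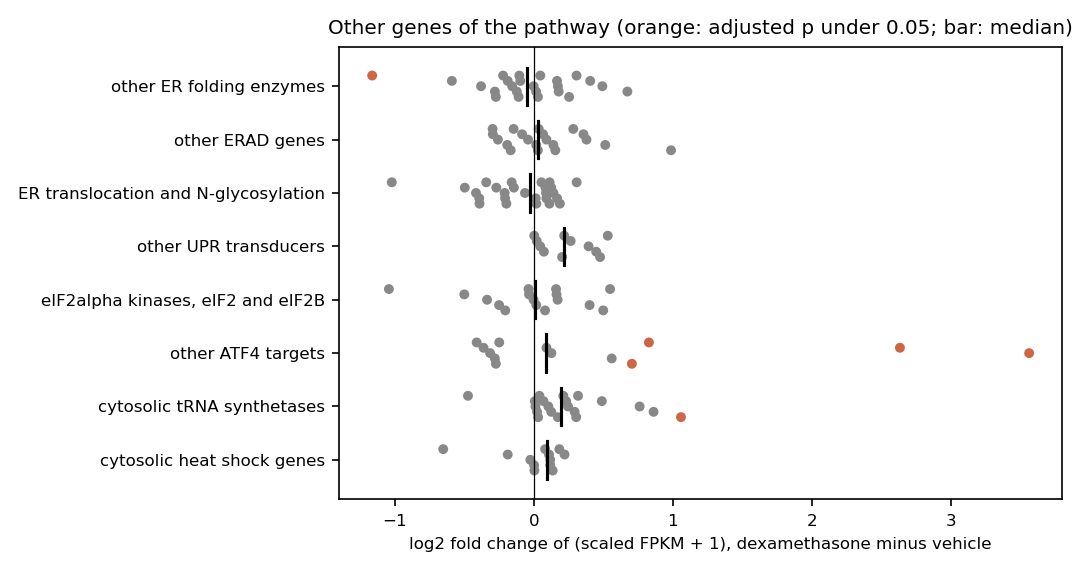
Log2 fold change of (scaled FPKM + 1), dexamethasone minus vehicle, of each tested gene (point) in 8 further lists, with the list median as a bar. Orange points passed the test: Pdia5 at -1.16, Vars at 1.06, and Ddit4, Gdf15, Cebpb and Eif4ebp1 among the ATF4 targets.

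Markers of other cells were read beside these results, since in whole liver fewer cells of a type and less RNA per cell cannot be told apart. The 8 hepatocyte markers were all tested and summed to 12914 to 18981 scaled FPKM with vehicle and 14338 to 19190 with dexamethasone, and 3 of them rose (Hnf4a and Cps1, called in 18 of 19 alternatives each, and Cyp3a11, called in 7). The 6 sinusoidal endothelial markers summed to 34.6 to 45.3 and 48.9 to 58.9, but did not move as 1: Stab1 and Lyve1 rose, Kdr was lower in every dexamethasone library (-0.46 ± 0.17, adjusted p = 0.15), and Stab2, Clec4g and Pecam1 overlapped. The 7 stellate cell markers summed to 54.4 to 62.3 and 62.5 to 81.2, with 0 called. Plasma cells, which hold much ER, have among their markers Tnfrsf17, Pou2af1 and Fcrl5, which were at 0 in every library. The list of 8 summed to 43.3 to 57.9 and 45.3 to 56.9, nearly all of it from Sdc1 and Txndc5, which hepatocytes also express. Kupffer cell markers summed to 19.9 to 31 and 21.5 to 23.6, and cholangiocyte markers to 15.5 to 47.4 and 18.5 to 29.7. Most of the cholangiocyte sum was Spp1 (14.1 to 46.4 with vehicle). Below the filter, the Kupffer cell marker Timd4 was lower in every dexamethasone library (means 0.536 and 0.211). The cholangiocyte marker Sox9, also below it, was higher in every one (0.195 and 0.467). B cell markers summed to 0.551 to 0.780 and 0 to 0.0712, with Cd79a at 0 in all 4 dexamethasone libraries and above 0 in each vehicle library. T and NK cell markers summed to 0 to 0.780 and neutrophil markers to 0 to 1.20 with vehicle, and both to 0 in every dexamethasone library. None of these 3 lists had a gene above the filter, and 5 of 6 pancreatic acinar markers were at 0 throughout. Outside Lars2 the dexamethasone libraries held only 665937 to 1581780 fragments, against 1636128 to 2571866 with vehicle. How far this depth accounts for the zeros of the 3 lists was not tested. The part of these marker differences in the 4 rises was not tested.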

How the data were processed

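Per the labels, the 8 liver libraries were stranded and made from total RNA after removal of ribosomal RNA. The submitters' processing notes name CASAVA 1.8, TopHat2 and the human build hg19, although the table's genes and positions are of mouse, and the counting tool is not given in the sources used here. The authors deposited FPKM and did not state which library total they divided by. The deposited count columns were read as a signal, fragment counts times 1 factor per library, because 93.2% to 95.4% of values up to 500 steps were whole multiples of a library's step within 0.01; they served for fragments only and for alternatives.

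Here, FPKM were divided by each library's median ratio to the geometric mean library over 9680 genes, giving factors of 0.985 to 1.25 with vehicle and 0.666 to 1.03 with dexamethasone. With R 4.3.3 and limma 3.58.1, lmFit and eBayes with a trend were run on log2(scaled FPKM + 1), with treatment as the only term, two-sided, adjusted by Benjamini-Hochberg. The genes, branches and lists were chosen with earlier results of these data known. All 33 genes are named, with up to 3 genes of smallest p per further list and Trib3, Fgf21, Gdf15, Sesn2, Ero1l, Fkbp5 and Lars2. The values of Eif4ebp1, of the named cell type markers and of the gene pairs given as ratios were known when these were named. The scaling and the gene test were first run on simulated data of 10221 genes, of which 200 were changed. They recovered 62% of the changes of log2 1 and 98% of those of log2 2, and 10 unchanged genes were called. The changed genes were drawn only from those above a floor of vehicle level. The recovery therefore does not cover genes as low as Ddit3 (0.812 scaled FPKM with vehicle), Chac1 (0.349) or Asns (0.212). Positions are from GENCODE M21 and promoters from RefSeq.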

Additional observations from a re-analysis of the deposited data

Results flagged for a closer look

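A value was singled out when its gap to the nearest library of its group, relative to the range of the 4, exceeded Dixon's 95% critical value. This picks about 1 in 20 groups by chance, and 7 of 126 groups were picked, 4 of them among the 33 genes. Canx was at 53.0 scaled FPKM in dexamethasone 2, with the other dexamethasone libraries between 70.2 and 70.7. Its fragments were about 903, 703, 624 and 323 in dexamethasone 1 to 4, so in fragments dexamethasone 2 lay within the range of the others. Derl2 was at 7.10 in dexamethasone 4, with the others between 11.4 and 12.0. Derl1 was at 10.6 in vehicle 1, with the others between 8.27 and 8.59. Atf6 was at 5.64 in vehicle 2, with the others between 4.51 and 4.68. Outside the 33 genes, Prkcsh, the beta subunit of glucosidase II, was at 35.8 in dexamethasone 4 against 27.5 to 28.6, and Magt1, an oligosaccharyltransferase subunit, was at 11.9 there against 16.1 to 16.3. Fgf21 was at 0.181 in vehicle 1 and at 0 in the other vehicle libraries. Dexamethasone 4, which holds 3 of these values, was also the shallowest library.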

How the results depend on the processing

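The planned count tests were not run, because the deposited count columns did not give whole fragments for enough genes. The scaled fragment counts, used as values or only for the scaling factors, were added after the data were seen. Without scaling, 140 genes were higher and 802 lower, 1 of the 33 genes higher and 4 lower, and the branch medians were -0.37 (ER chaperones), -0.39 (XBP1 targets) and -0.48 (sensors). On the scaled fragment counts 544 genes were higher and 538 lower, and 2 of the 33 were lower. A pseudocount of 0.1 left 2 of the 33 higher and no filter left 1. The median of the ATF4 and CHOP branch was 1.42 with a pseudocount of 0.1, 0.92 with 0.5, 0.49 with no filter and 1.33 on the scaled fragment counts. With 1 library left out, 221 to 315 genes were higher and 183 to 289 lower, 1 to 3 of the 33 were higher, and the branch medians were -0.26 to -0.079 (sensors), 0.51 to 0.80 (ATF4 and CHOP), -0.08 to 0.07 (XBP1 targets) and -0.03 to 0.14 (ER chaperones). The causes were not tested.

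No label pairs the mice, and the deviations of libraries with the same number correlated at 0.02, -0.015, -0.008 and -0.001, with 0 vehicle libraries closest to their own number. With the replicate number as a block 243 genes were higher and 190 lower, and 3 of the 33 were higher, without Atf5 (adjusted p = 0.0796). The block also ended the calls of Cebpb (0.0608) and Eif4ebp1 (0.0946).

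The sign of a log2 fold change turned in 41 cases, 36 of them in the 33 genes, and in 0 of these was the gene called on either side. Without scaling these were Hspa5 (-0.18), Hsp90b1 (-0.36), Calr (-0.27), Hyou1 (-0.069), Manf (-0.19), Dnajb11 (-0.21), Sel1l (-0.30), Atf6 (-0.17), Eif2ak3 (-0.15), Ufd1l (-0.0032), Creb3l3 (-0.14), Dnajb1 (-0.049) and Bag3 (-0.11). On the scaled fragment counts they were Hsp90b1 (-0.10), Pdia6 (0.037), Dnajc3 (0.023), Edem1 (0.039), Derl1 (0.075), Ppp1r15a (0.024) and Nfe2l1 (-0.091). Factors from those counts gave Pdia6 (0.031), Derl1 (0.034) and Ppp1r15a (0.0023), and quantile normalization gave Hsp90b1 (-0.012). With 1 library left out the sign turned in 10 genes, whose ranges were Derl1 (-0.076 to 0.056), Ppp1r15a (-0.22 to 0.19), Eif2ak3 (-0.14 to 0.54), Pdia6 (-0.11 to 0.055), Sdf2l1 (-0.19 to 0.14), Sel1l (-0.084 to 0.21), Atf4 (-0.29 to 0.035), Hsp90b1 (-0.013 to 0.14), Dnajc3 (-0.20 to 0.070) and Edem1 (-0.14 to 0.0034). Depth limits Ddit3, Chac1, Asns, Atf3 and Derl3, which rest on at most 24 fragments in any library.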
